A study of Homo sapiens with 4 samples.

Results

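The genes described here are 5 pairs of neighbours on the same strand, GOLGB1 with HCLS1, NOP2 with IFFO1, CELF1 with RAPSN, HERPUD1 with CETP and GPBP1L1 with CCDC17, in which the second gene begins past the end of the first. These 10 genes, matched by Ensembl identifier, are 10 of the 63677 genes counted by RNA-seq in HCT116 cells, a human colorectal cancer line. The pairs were named with the comparison of anti-GAA and control oligonucleotides already known, in which the 5 downstream genes have the 5 smallest p among lower genes averaging 1 CPM (reads scaled to a common library size) or more, and the upstream genes were taken for their place. The values of that comparison are therefore given as a description, without a test. In each of the 5 pairs the downstream gene held fewer reads with the anti-GAA oligonucleotide, from 7.78-fold (IFFO1) to 26.1-fold (CETP) in the fitted values, while 4 of the 5 upstream genes differed by at most 1.39-fold and GOLGB1 was 1.94-fold lower.

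The study transfected an antisense oligonucleotide (ASO) against tandem GAA repeats, or a control ASO, and asked what the loss of GAA-containing RNAs does to replication origins. RNA-seq was made from 2 replicates of anti-GAA ASO and 2 of control ASO, transfected for 48 h according to the labels (the methods give a shorter time), with no untreated library. The labels name a total RNA library kit and the methods a stranded mRNA kit, so whether unpolyadenylated RNA was sequenced is not settled. Both groups are the same cell line, and the methods name different makers for the control and the anti-GAA ASO. Libraries held 10538284 to 17894953 counted reads, with anti-GAA replicate 1 the smallest, and reads on 21368 and 22869 genes with anti-GAA against 23143 and 23443 with control. The methods describe duplicate experiments, and neither they nor the labels say whether these were separate cultures. The libraries of a group differed beyond counting noise (chi-square per degree of freedom 38.1 with anti-GAA and 37.8 with control). Of 8 markers of an epithelial colorectal line, 6 had over 100 reads in all (EPCAM, KRT8, KRT18, KRT19, CDH1 and CLDN4), while VIL1 was nearly absent. LGALS4 was low, with 1 and 5 reads with anti-GAA and 8 and 29 with control.

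A gene's transcript normally ends where the RNA is cleaved at a polyadenylation signal, after which the polymerase runs on for some distance and is released when the exonuclease XRN2 degrades the RNA still attached to it. When cleavage or release fails, RNA continues past the gene, and its reads can be assigned to the next gene. Strand-specific counting limits this to a next gene on the same strand, and the strand setting used here is not stated. Read-through of this kind is known to give counts to genes that a cell does not otherwise transcribe. A count table cannot tell such reads from those of the downstream gene's own transcripts. Nor can bulk RNA separate fewer cells expressing a gene from less RNA per cell.

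The 5 loci differ in scale (positions on GRCh38, GENCODE 44). HCLS1 (chromosome 3, 121631399 to 121660927, minus strand) begins after a gap of 2271 nt from GOLGB1 (121663199 to 121749966). IFFO1 (chromosome 12, 6538961 to 6556073, minus strand) is the closest, 789 nt past NOP2 (6556863 to 6568691). RAPSN (chromosome 11, 47437764 to 47449143, minus strand) follows CELF1 (47465933 to 47565569) after 16789 nt. CETP (chromosome 16, 56961923 to 56983845, plus strand) follows HERPUD1 (56932142 to 56944864) after 17058 nt, the widest of the 5 gaps. CCDC17 (chromosome 1, 45620044 to 45624057, minus strand), with 4014 nt the shortest gene here, follows GPBP1L1 (45627304 to 45688113) after 3246 nt. No annotated gene lies in any of the 5 gaps, so the table holds no value for them, and GENCODE 44 lists no transcript of one member that reaches into its partner. In the last 50 nt of the annotated gene the polyadenylation hexamer AATAAA stands 25 nt before the end of GOLGB1, 22 nt before that of HERPUD1 and 18 nt before that of GPBP1L1, and its variant ATTAAA 24 nt before that of CELF1. NOP2 has neither hexamer in that window.

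The anti-GAA ASO pairs with tandem GAA in RNA, so perfect GAA runs in any frame were searched on the RNA strand over both genes and the gap of each pair. Only 2 runs of at least 12 nt were found, 1 of 12 nt in an intron of GPBP1L1 (chromosome 1, 45636320 to 45636331) and 1 of 14 nt in an intron of CETP (chromosome 16, 56967989 to 56968002). They are shown because they are the longest perfect runs of the repeat at these loci, with the run in capitals between 5 flanking bases on each side. Imperfect runs were not searched.
GPBP1L1 intron: actacAGAAGAAGAAGAgtact
CETP intron: aaaaaAAGAAGAAGAAGAAtttgg
The longest run was 11 nt in GOLGB1 and in CELF1, 10 nt in HCLS1, 9 nt in IFFO1 and 8 nt in NOP2, RAPSN and HERPUD1, and at most 8 nt in the gaps. CCDC17, with 3 and 1 reads against 41 and 51, had no run over 6 nt in its body. Runs of TTC, which mark GAA on the opposite strand, were at most 11 nt at the 5 loci.

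The RefSeq promoter table (GRCh38.p14) matched 3 of the 5 downstream genes, HCLS1, CETP and CCDC17, while IFFO1 and RAPSN had no entry. The 250 bases before the RefSeq start are printed because transcripts of the downstream gene itself would begin next to them, and because these genes were low together.
HCLS1 promoter: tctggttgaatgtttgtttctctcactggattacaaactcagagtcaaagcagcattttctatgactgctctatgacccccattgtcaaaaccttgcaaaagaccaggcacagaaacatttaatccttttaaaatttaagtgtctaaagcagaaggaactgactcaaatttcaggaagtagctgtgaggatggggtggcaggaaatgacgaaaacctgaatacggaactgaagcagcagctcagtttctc
CETP promoter: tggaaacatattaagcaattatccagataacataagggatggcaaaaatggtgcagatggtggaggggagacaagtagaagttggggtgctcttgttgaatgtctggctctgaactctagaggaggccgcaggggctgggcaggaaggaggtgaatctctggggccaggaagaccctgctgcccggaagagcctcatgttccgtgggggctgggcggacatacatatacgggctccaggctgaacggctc
CCDC17 promoter: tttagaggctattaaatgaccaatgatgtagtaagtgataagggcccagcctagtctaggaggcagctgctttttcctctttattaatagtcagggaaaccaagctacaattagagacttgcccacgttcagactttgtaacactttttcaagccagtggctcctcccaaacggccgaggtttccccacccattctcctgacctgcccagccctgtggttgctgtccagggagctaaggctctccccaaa
They lie at chr3:121660904-121661153 (minus strand), chr16:56961700-56961949 (plus strand) and chr1:45624055-45624304 (minus strand), and since the GENCODE 44 gene begins further upstream they reach 24, 27 and 3 nt into it. The hexamer GAAGAA, searched on both strands (so also as TTCTTC), occurs in none of the 3, and in 16.5% of the 35116 promoters of the table over the same 250 bases.

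HCLS1 encodes a cortactin relative of blood cells that binds actin and is phosphorylated downstream of antigen receptors. It had 4 and 6 reads with anti-GAA (replicates 1 and 2) and 64 and 108 with control. In CPM, with libraries scaled by TMM factors, this was 0.371 ± 0.0473 (SD, n = 2) against 5.27 ± 1.55 (SD, n = 2), a log2 fold change of −3.83 (SE 0.49). Both anti-GAA libraries lay far below both control libraries. Its upstream neighbour GOLGB1, the giant golgin that tethers vesicles at the Golgi, had 116 and 182 reads with anti-GAA and 243 and 450 with control. GOLGB1 was thus also lower in both anti-GAA libraries, by a log2 fold change of −0.95 (SE 0.31). Control replicate 2 decided much of its size, since the value without that library was −0.52. HCLS1 reads per 100 GOLGB1 reads were 26.3 and 24.0 in the control libraries and 3.45 and 3.30 in the anti-GAA libraries. The ratio was 6.81-fold lower with anti-GAA. Its anti-GAA values rest on 4 and 6 HCLS1 reads, with exact counting intervals of 0.924 to 9.07 and 1.19 to 7.32. The other downstream genes also had more reads in control replicate 2 than in 1, while NOP2, CELF1 and HERPUD1 had fewer and GPBP1L1 more. Whether HCLS1 follows GOLGB1 across replicates was not tested.

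IFFO1, an intermediate filament family member found at the nuclear lamina, had 13 and 13 reads with anti-GAA and 101 and 149 with control. It held 1.02 ± 0.412 CPM (SD, n = 2) against 7.69 ± 1.56 CPM (SD, n = 2), and its log2 fold change was −2.96 (SE 0.43). IFFO1 is thus the downstream gene with the most reads left under anti-GAA. Its upstream neighbour NOP2, the nucleolar methyltransferase of ribosomal RNA, had 1790 and 1844 reads with anti-GAA and 2494 and 2005 with control. In CPM its groups overlapped, at 142 ± 54.6 and 140 ± 31.4 CPM (SD, n = 2 each). Per 100 NOP2 reads there were 0.726 and 0.705 IFFO1 reads with anti-GAA and 4.05 and 7.43 with control, so the control libraries differed from each other by 1.83-fold and the ratio was 7.41-fold lower with anti-GAA.

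RAPSN encodes rapsyn, which clusters acetylcholine receptors under the nerve ending of skeletal muscle. It had 3 and 2 reads with anti-GAA and 40 and 54 with control. With 5 reads against 94, and after scaling for depth, control exceeded anti-GAA by 16.1-fold, with a 95% exact interval of 6.67 to 50.8. This interval pools the reads of a group and covers counting error only, not the spread between its libraries. The fitted log2 fold change was −3.90 (SE 0.60), and −4.59 and −3.22 without replicate 1 or 2 of anti-GAA. Its neighbour CELF1, an RNA-binding regulator of splicing and mRNA decay, had 1914 and 2433 reads with anti-GAA and 2388 and 2010 with control, a log2 fold change of 0.27 (SE 0.25) with overlapping groups. There were 0.157 and 0.0822 RAPSN reads per 100 CELF1 reads with anti-GAA and 1.68 and 2.69 with control.

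CETP encodes the plasma protein that moves cholesteryl esters between lipoproteins and is known from liver and adipose tissue. It had 1 read in each anti-GAA library and 23 and 46 reads in the control libraries. Scaled for depth, the control sum exceeded the anti-GAA sum by 29.6-fold. The exact 95% interval, again for counting error only, was 7.89 to 249, the widest of the 5. The fitted log2 fold change was −4.71 (SE 0.74). Its neighbour HERPUD1, a membrane protein of the endoplasmic reticulum that acts in the disposal of misfolded proteins, had 1173 and 2349 reads with anti-GAA and 1463 and 1433 with control. In CPM, HERPUD1 was higher in both anti-GAA libraries (119 and 132 CPM against 95.4 and 84.5 CPM), a log2 fold change of 0.48 (SE 0.19). In this pair the members lay on opposite sides of no difference, and CETP reads per 100 HERPUD1 reads were 0.0853 and 0.0426 with anti-GAA and 1.57 and 3.21 with control.

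CCDC17, a coiled-coil protein, had 3 and 1 reads with anti-GAA and 41 and 51 with control. The depth-scaled excess in control was 19.7-fold (95% exact interval, counting error only, 7.45 to 73.9). The fitted log2 fold change of −4.16 (SE 0.69) was −5.48 without replicate 1 and −3.19 without replicate 2 of anti-GAA. GPBP1L1, a homolog of a GC-rich promoter binding protein, had 569 and 1182 reads with anti-GAA and 844 and 1184 with control, or 57.5, 66.4, 55.0 and 69.8 CPM, with overlapping groups. CCDC17 reads per 100 GPBP1L1 reads were 0.527 and 0.0846 with anti-GAA and 4.86 and 4.31 with control, so the control libraries were close to each other and the anti-GAA value rested on 4 reads in all.

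Set against each other, the changes of the ratio on the log2 scale (0.5 added to both counts) were −2.77 in the HCLS1 pair and −2.89 in the IFFO1 pair, and reached −3.97 with RAPSN, −4.66 with CETP and −4.05 with CCDC17. The SD between replicates within a group ran from 0.03 (NOP2 and IFFO1 with anti-GAA) to 1.61 (GPBP1L1 and CCDC17 with anti-GAA, 3 and 1 reads). Within the same replicate number the change was −2.78 and −2.76 for HCLS1 and −2.43 and −3.35 for IFFO1 (replicates 1 and 2). For RAPSN, CETP and CCDC17 it was −3.21, −3.65 and −3.0 in replicate 1 and −4.72, −5.67 and −5.10 in replicate 2. Without the added 0.5, a ratio within a library does not depend on its depth or scaling. The counting intervals of the ratios without it, which cover counting error only, did not overlap between any anti-GAA and any control library of a pair.

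**Figure D1:**
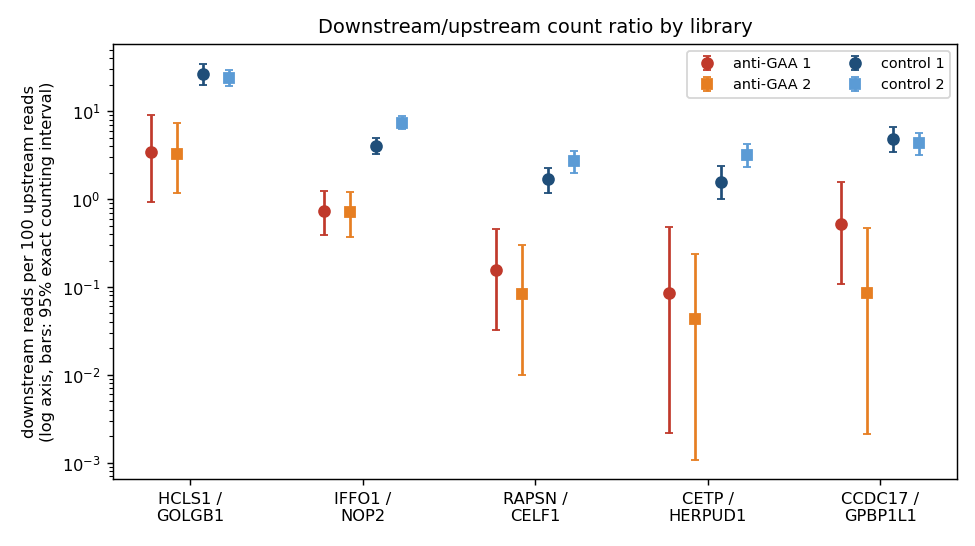
Downstream reads per 100 upstream reads (log axis) in each library, with 95% exact counting intervals from a Clopper-Pearson share. In all 5 pairs both anti-GAA libraries lie below both control libraries. Between the nearest libraries of the groups, the distance on the log axis is smallest for IFFO1 (0.726 against 4.05) and largest for CETP (0.0853 against 1.57).

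Per kb of annotated exon, 4 of the 5 downstream genes were minor beside their neighbour also in the control libraries, at 3.84% and 7.04% of the NOP2 density for IFFO1, 9.42% and 15.1% for RAPSN, 2.35% and 4.79% for CETP and 10.9% and 9.64% for CCDC17. HCLS1 stood apart, with 175% and 159% of the read density of GOLGB1 in the control libraries and 22.9% and 21.9% in the anti-GAA libraries. With the length of the MANE Select transcript in place of all exons, HCLS1 was at 148% and 135% in the control libraries. The lengths are those of GENCODE 44 and not of the annotation used for counting.

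All 10 genes passed the filter on low counts, HCLS1, RAPSN, CETP and CCDC17 only through the control libraries. Both anti-GAA libraries lay below both control libraries in CPM for 6 of the 10 genes (the 5 downstream genes and GOLGB1), against 16.9% of the 15116 tested genes. An unadjusted p under 0.05 in edgeR's quasi-likelihood test without the replicate number fell to the same 6 in the lower direction, where it fell to 3.46% of all tested genes, and to HERPUD1 in the higher direction (1.02% of tested genes). After Benjamini-Hochberg adjustment edgeR called 0 genes (0%) in either direction, where the unadjusted counts were 523 and 154. DESeq2 called 3 lower (0.0107% of the genes it tested), of which HCLS1 and IFFO1 are members, and edgeR with the replicate number as a block called the same 6 members, against 1.37% of tested genes. Since the downstream genes were picked from this comparison, nothing is read from these counts about them. The gene just outside the choice was MATN4, with 6 and 10 reads against 59 and 53 (log2 fold change −2.57), next to CCDC17 with −4.16 just inside. MATN4 lies 16758 nt past SDC4 on the same strand.

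HCLS1, RAPSN and CETP are known from tissues other than colon epithelium, and other genes of those tissues were read from lists, with a list of motile cilium genes set beside CCDC17. Of 11 blood genes, CD3E and SPI1 had 0 reads in all libraries, 6 with these included had at most 10 in all, and the 11 together held 19 and 71 reads with anti-GAA and 35 and 74 with control. HCLS1 alone, with 64 and 108, held more reads in each control library than this sum. Of 10 genes of muscle and the neuromuscular junction, MYOD1 was at 0 throughout, 7 had at most 10 reads in all, and the list summed to 64 and 124 reads with anti-GAA and 117 and 192 with control, most of them from DOK7 and DES. Among them CHRNA1 and CHRND, receptor subunits that rapsyn clusters, had 1 and 4 reads over the 4 libraries. The 10 genes of liver and plasma lipoproteins summed to 34 and 86 reads with anti-GAA and 115 and 204 with control. The smallest p belonged to APOA1 at −1.5 (SE 0.47) and LCAT, the enzyme that makes cholesteryl esters in plasma, at −1.13 (SE 0.40), and neither passed the adjustment (adjusted p = 0.985 and 0.996 from edgeR). In the muscle list they belonged to ACTA1 (6 and 12 reads against 17 and 34) and DES (14 and 59 against 34 and 90). Of 10 genes of motile cilia, 9 were counted, and they summed to 73 and 220 reads with anti-GAA and 154 and 239 with control, with TEKT1 at 0 and the smallest p for RSPH4A (0 and 14 reads against 13 and 15) and CFAP43 (25 and 78 against 55 and 91). In the blood list only CORO1A, with 10 and 40 reads against 18 and 45, had enough reads to be tested. Some genes named from these lists themselves begin past the end of a coding gene on the same strand. APOA1 lies 5779 nt past SIK3, ACTA1 6154 nt past NUP133 and RSPH4A 18803 nt past RWDD1. Among all coding genes with 30 to 99 reads in all, 239 lay past an expressed same-strand coding gene and 987 did not. What the low counts of these lists contribute to the values of the downstream genes was not tested.

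The next gene beyond each downstream member was also read. Beyond HCLS1 lies FBXO40 on the opposite strand, with 0 and 1 reads with anti-GAA and 0 and 5 with control. Next to RAPSN on its far side and on the same strand, PSMC3, a proteasome subunit, had 4798 and 5033 reads with anti-GAA and 6145 and 5207 with control. NLRC5, the next gene on the strand of CETP, had 80 and 101 against 137 and 131 reads. On the opposite strand, GAPDH beyond IFFO1 had 415 and 1426 against 1278 and 1201 reads, some of which may be shared with its pseudogenes, and NASP beyond CCDC17 had 3293 and 6392 against 4931 and 5375. Exons of CELF1 overlap those of NDUFS3 and PTPMT1 on the opposite strand by 234 and 140 nt, and without a stated strand setting the reads there cannot be told apart. GENCODE 44 also places ENSG00000285238 over 2550 nt of NOP2 exons on the same strand, a gene not used here.

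To place the 5 pairs, protein-coding genes were paired with the next protein-coding gene on their strand up to 20 kb past their end, with at least 200 reads upstream and 10 downstream over the 4 libraries, which gave 2622 pairs. Pairs with a further coding gene of that strand reaching into the gap were left out. The median change of the ratio was −0.06 on the log2 scale, and the ratio was lower in 56.0% of pairs. Counted from the most negative change, HERPUD1 and CETP ranked 3, GPBP1L1 and CCDC17 6, CELF1 and RAPSN 8, NOP2 and IFFO1 39 and GOLGB1 and HCLS1 45. The 5 further pairs with the most negative change were MOSMO and VWA3A (−5.40, 0 and 0 against 10 and 34 downstream reads), MCM6 and LCT (−4.70, 2 and 0 against 24 and 43), EHD4 and SPTBN5 (−4.57, 0 and 0 against 8 and 25), ZNF131 and NIM1K (−4.25, 0 and 0 against 11 and 12) and BCAS3 and TBX2 (−4.02, 0 and 3 against 18 and 39). With downstream counts of 0, these log2 values depend on the 0.5 added.

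Low ratios with anti-GAA were mainly those of minor downstream genes. Without the members, 744 pairs had fewer than 10 downstream reads per 100 upstream reads over all libraries, with a median change of −0.45. Their ratio was lower in 74.7%, and both anti-GAA libraries lay below both control libraries in 42.3%, the reverse in 7.26%. In the 1873 pairs with a ratio of 10 or more the median was 0.01, with 15.5% not overlapping in the lower and 16.0% in the higher direction. A change below −2 was found in 92 of the 744 and 2 of the 1873, and one above 2 in 3 and 0. The width of the gap made little difference among the 744, with a median of −0.47 in 337 pairs up to 5 kb apart and −0.42 in 407 pairs further apart. HCLS1, with 18.4 reads per 100 of GOLGB1 over all libraries, thus lies outside the class of minor downstream genes that holds the other 4.

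**Figure D2:**
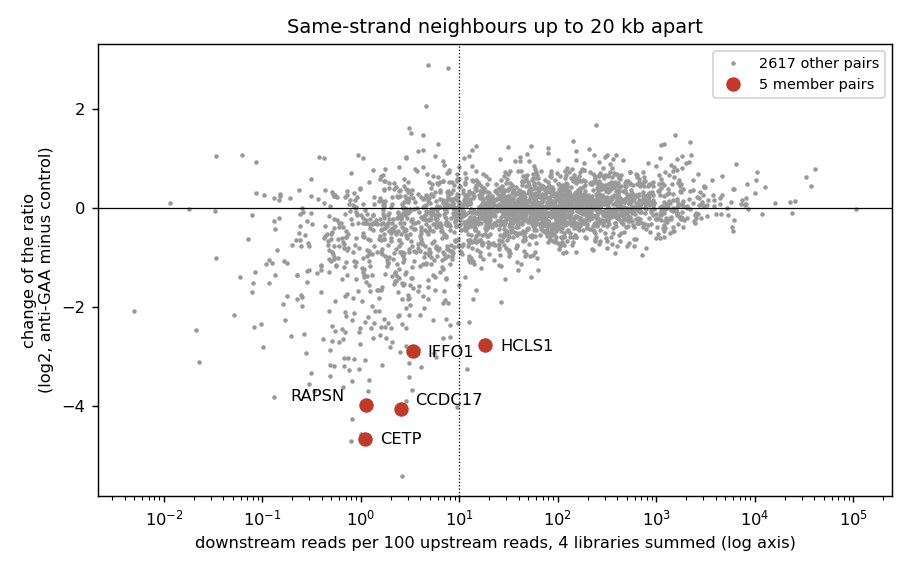
Change of the downstream/upstream ratio (log2, anti-GAA minus control) against the ratio over all 4 libraries (log axis) for 2622 same-strand pairs, with the members in red and a dotted line at 10 reads per 100. Changes below −2 lie almost all left of the line, where CETP, CCDC17, RAPSN and IFFO1 lie, while HCLS1 lies to its right.

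Coding genes with few reads also tended to lower values. Those of 10 to 99 reads over the 4 libraries were sorted by their place beside a coding gene with at least 200 reads and over 10 times their own. This comparison was added after the data were seen and made without the members. CETP would be of the first kind below, and RAPSN and CCDC17 have such neighbours at more than 1 place. HCLS1 and IFFO1 have over 99 reads. With 991 reads against 182, GOLGB1 is also no such neighbour of HCLS1. For 238 genes that begin past the end of such a gene on the same strand, and lie at no other of these places within 20 kb, the median log2 change was −0.82, and 49 (20.6%) had a change below −2. The median was −0.34 for 124 genes lying before the start of such a neighbour on the same strand, −0.21 for 169 past its end on the opposite strand, −0.24 for 108 before its start on the opposite strand and −0.29 for 937 with no such neighbour. Changes below −2 made up 8.06%, 4.73%, 2.78% and 5.55% of these. Genes at several of these places had such changes in 17.6% of 221 where past the end on the same strand was one of them and in 1.96% of 102 where it was not, and genes that overlap such a neighbour in 5.26% of 399. With each library left out in turn, the first median ran from −0.74 to −0.93 and its share below −2 from 18.1% to 24.4%, while the medians of the 4 kinds next named ran from −0.08 to −0.60 and their shares from 3.70% to 12.9%. These are counts over genes of the same 4 libraries, not over replicates, and they carry no test. What sets the places apart was not tested.

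**Figure D3:**
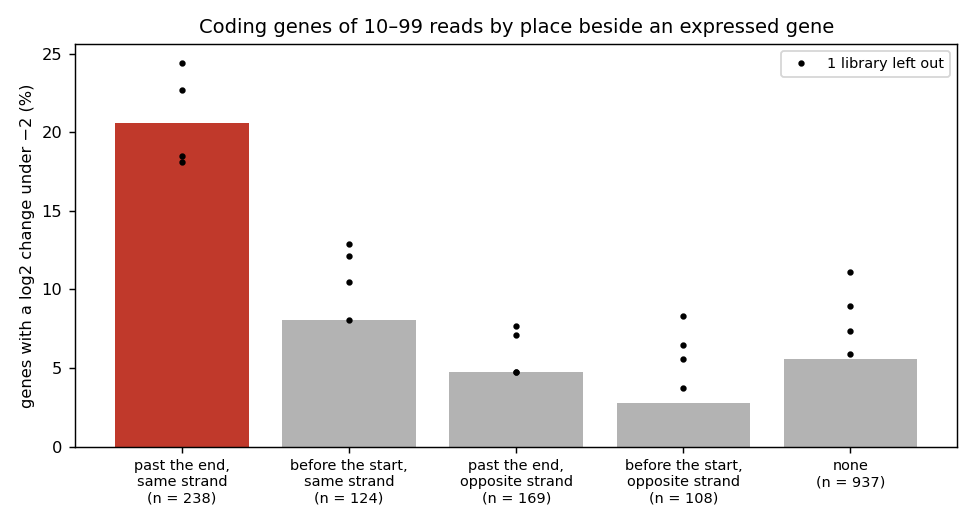
Share of coding genes of 10 to 99 reads with a log2 change below −2, by place beside an expressed coding gene, with dots for the values when 1 of the 4 libraries is left out. Genes past the end of a neighbour on its strand stand at 20.6%, the other 4 kinds drawn at 2.78% to 8.06%, and the dots of the first bar lie above those of the others.

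In the profile over the 4 libraries, the 5 genes outside the members nearest to the mean of the downstream genes (Euclidean distance of centred log2 CPM, among 15055 genes averaging 0.5 CPM or more) were ACTBP14 (distance 0.39), SWINGN (0.42), LCT (0.51), SPIB (0.69) and FERMT3 (0.71). LCT, the intestinal lactase, begins 2441 nt past MCM6, SPIB, a transcription factor of lymphoid cells, 919 nt past POLD1 (not among the 2622 pairs, since another annotated coding gene spans that gap), and FERMT3, the kindlin of blood cells, 1382 nt past STIP1, each on the same strand. Of coding genes with 30 to 99 reads in all, 239 lay past an expressed same-strand coding gene and 987 did not. ACTBP14, a processed pseudogene of actin, lies within KIFBP on its strand. SWINGN, a long noncoding RNA, has no gene of at least 200 reads on its own strand within 20 kb upstream. The reads of ACTBP14 may be shared with other actin copies. ACTBP14 had 1 and 1 reads against 18 and 32, and SWINGN 4 and 2 against 34 and 63. The 5 genes rest on 2 to 6 reads in the anti-GAA libraries together, and with 4 libraries a like profile says little more than a low value with few reads left.

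A list of 33 factors of cleavage, polyadenylation and termination was also read. All 33 were tested, and 0 passed an adjusted p of 0.05 in edgeR. Unadjusted p-values under 0.05 were found for 2 with lower and 0 with higher values, against 3.46% and 1.02% of all tested genes. PCF11, a cleavage factor subunit that acts in termination, was among the lower ones at a log2 fold change of −0.63 (SE 0.26, adjusted p = 0.996 from edgeR), with 77 and 131 reads with anti-GAA and 177 and 201 with control. XRN2 had 2603 and 5326 reads with anti-GAA and 3373 and 4128 with control. The median of the list was 0.15 and 23 of the 33 were above 0, beside a median of 0.013 over all tested genes.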

How the data were processed

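RNA-seq reads were trimmed (Trimmomatic), aligned (STAR) and assigned to genes of hg19 (featureCounts) by the authors, who dropped reads on GL contigs. The deposited table holds raw counts per Ensembl gene. Neither the annotation release, nor the strand option, nor the handling of multiply matching reads is given in the sources used here. Positions and symbols came from GENCODE 44 (GRCh38) by Ensembl identifier, found for 52181 of the 63677 genes, with no conversion from hg19.

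The fit across all genes was made with edgeR 4.0.16 in R 4.3.3 (filterByExpr, TMM, quasi-likelihood F-test, condition as the only term, Benjamini-Hochberg adjustment over 15116 genes) and DESeq2 1.42.0 as an alternative. log2 fold changes are anti-GAA over control. Ratios of counts used a pseudocount of 0.5 on both genes for log2 values and none for reads per 100, with Clopper-Pearson intervals. Places beside expressed genes, and neighbours of any gene type, were added after the data were seen.

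The members and lists were chosen with earlier results of these data known. Named genes are the 10 members, the 5 genes nearest in profile, the 5 further pairs with the most negative change, and, of each list, genes past an adjusted p of 0.05 or else the 2 with the smallest p. Others were named after their values were seen. Some genes that this rule or these lists hold are not reported here.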

Additional observations from a re-analysis of the deposited data

How the results depend on the processing

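Each downstream gene stayed lower in all 10 other fits of the counts, with log2 fold changes from −5.48 (CCDC17 without replicate 1 of anti-GAA) to −2.54 (IFFO1). Each of the 5 ratios stayed lower in its 8 alternatives, of which the replicate block equals the main value by construction. GOLGB1 stayed between −1.29 and −0.52, while the direction of NOP2 and GPBP1L1 depended on the fit. NOP2, at 0.02, was −0.08 with scaling to total counts, −0.02 with the replicate number as a block, −0.43 without replicate 1 of anti-GAA and −0.19 without replicate 2 of control, in a range up to 0.37 over the left-out libraries. GPBP1L1, at −0.01, was 0.001 in DESeq2, 0.10 without replicate 1 of anti-GAA and 0.18 without replicate 2 of control, in a range down to −0.18. The cause was not tested.

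The change of the HCLS1 ratio (−2.77) was −2.90 without a pseudocount, −2.45 with 2 and −2.89 from summed counts. That of RAPSN (−3.97) was −3.42 with a pseudocount of 2, that of CCDC17 (−4.05) was −3.34 with it, and that of CETP (−4.66) was −3.73 with it and −5.39 from summed counts. Leaving out each library gave −2.84 to −2.70 for HCLS1, −3.33 to −2.45 for IFFO1, −4.38 to −3.55 for RAPSN, −5.17 to −4.15 for CETP and −5.19 to −2.91 for CCDC17. The median over all pairs (−0.06) was −0.45 with the ratio under 10 per 100, members included, and −0.09 to −0.06 with a library left out.

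The number of genes called (0 lower, 0 higher in edgeR) was 3 lower in DESeq2, 111 lower and 5 higher without a filter, and 207 lower (1.37% of tested genes) and 51 higher with the replicate block. Leaving out each library gave 0 to 16 lower and 0 to 3 higher, where a lone library is assumed to vary like the other group. Of the 10 members, the block called 6 (the downstream genes and GOLGB1) among its 207 lower genes. The fit without a filter called 5 (the downstream genes) among its 111. The downstream genes were picked from this comparison, so nothing is read from these counts about them. Libraries of the same replicate number deviated together across genes (r = 0.564 over 15116 genes, which are not independent), but the labels do not say what the number marks.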
